A study of Mus musculus with 12 samples.

Results

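The 8 glutathione peroxidase genes of the mouse, Gpx1 to Gpx8, were followed in the caput, the head of the epididymis, of wild-type (WT) mice and of mice labelled as knockout (KO) for Gpx5. Members were chosen by gene name in the caput transcriptome table, which gave 8 of 22021 genes and 10 of 28344 transcripts. In WT caput Gpx5 was the most abundant gene of the table, at 8474 RPKM (reads per kilobase of transcript, scaled to the total of the library), and held 95.2% of the summed RPKM of the family. The KO library had 918 RPKM of Gpx5, and Gpx5 was still the highest member there. Gpx4 was also lower in the KO library, Gpx8 was higher, and Gpx1, Gpx3, Gpx6 and Gpx7 had KO values above WT values by less than 2-fold.

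Glutathione peroxidases reduce hydrogen peroxide and organic hydroperoxides, most of them with glutathione as the electron donor. Gpx1, Gpx2, Gpx3 and Gpx4 carry selenocysteine at the active site in mice, while Gpx5, Gpx6, Gpx7 and Gpx8 carry cysteine there. In the epididymis Gpx5 is known as an androgen-dependent protein that caput epithelium secretes onto spermatozoa, Gpx3 as a second secreted member, and Gpx4 as the member that protects membrane lipids and forms part of the sperm midpiece.

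The groups were C57BL/6 WT and Gpx5-/- mice at 13 months, with tissue of 7 mice per genotype pooled into 1 library per group. How the Gpx5 allele was made is not given in the sources used here. Caput tissue was pierced and kept in buffer to let spermatozoa out before RNA was taken, and cDNA of full-length mRNA was sequenced. Another readout of the members came from 10 small RNA libraries of the same genotypes, which covered testis and the caput, corpus and cauda epididymidis of 13-month mice, and caput of mice aged 2 months.

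The transcriptome libraries held 14348655 reads in WT and 13929327 in KO. With 1 library per group there is no replicate error and no test, intervals at 95% cover counting error only, and reads without molecular identifiers are not independent molecules. A gene was called higher or lower at a difference of at least 1 on the log2(RPKM + 1) scale, which is a rule of size. All 19 caput principal cell markers were detected in both libraries, with a summed level of 17417 RPKM in WT and 40980 RPKM in KO. The WT library also held testis transcripts: the 18 spermatid markers summed to 12792 RPKM in WT and 201 RPKM in KO, the 11 spermatocyte markers to 690 and 10.5 RPKM, and the 7 Leydig cell markers to 363 and 11.9 RPKM. Sertoli cell markers, with 7 of 8 in the table, summed to 30.25 RPKM in WT and 9.79 RPKM in KO, and 4 of the 5 tested were called lower (1 at a pseudocount of 5 RPKM). None of these markers was at 0 in WT, while the spermatocyte marker Stra8 and the Sertoli cell markers Fshr and Gata4 were at 0 in KO. The part of this gap between the libraries in the values of the members was not tested. In bulk tissue, fewer cells of a type, less RNA per cell and entry of testis tissue into a pool cannot be told apart.

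**Figure D1:**
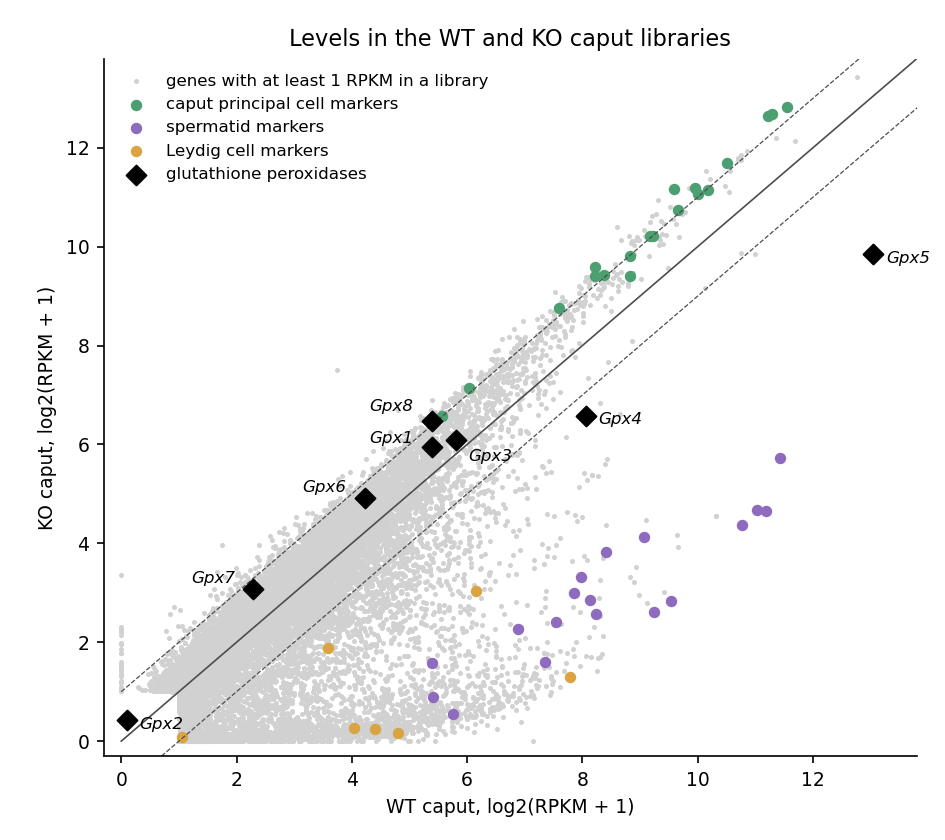
Each point is a gene, with its level in WT caput on the x axis and in KO caput on the y axis, both as log2(RPKM + 1). The solid line marks equal levels and the dashed lines a difference of 1. Gpx5 and Gpx4 lie below the lower dashed line, and the spermatid markers lie far below it. Gpx8 lies just above the upper dashed line, at a level below the lowest caput principal cell marker in both libraries.

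Gpx5 comes first, as the gene that the genotype labels name. Its transcript (NM_010343) was at 8474 RPKM in WT and 918 RPKM in KO, which put it at place 1 by level among 22021 genes in WT and at place 58 in KO. The KO value was below the WT value by 9.23-fold (9.11 to 9.36), a difference of -3.21 on the log2(RPKM + 1) scale. The authors' deposited table gave Gpx5 a change of -3.14 (log2) and a GFOLD value, a log2 change shrunk for low counts, of -3.11. Gpx5 reads made up about 1.62% of the WT library and 0.176% of the KO library. These shares are approximate: they rest on 233031 recovered WT reads, and rounding of the printed values allows 206958 to 266620. The transcript was therefore lower in the library labelled KO, and it remained among its abundant transcripts.

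Gpx5 stood apart from the secretory genes of its tissue. In WT its level was above those of all 19 caput principal cell markers, which ranged from 46.6 to 3007 RPKM. In KO the markers ranged from 95.1 to 7241 RPKM, with 11 of 19 above Gpx5. Each of the 19 markers had a KO value above its WT value on the log2(RPKM + 1) scale, by 0.57 to 1.57. Of these markers 15 of 19 were called higher, or 6 of 19 with a total taken without Gpx5 and the genes at least 8-fold lower in KO. Over all genes tested, 2.77% were called higher, and 172 genes with that total. Adam7, a membrane protein of caput epithelium that passes to spermatozoa, was at 2383 RPKM in WT and 6373 RPKM in KO, and Lcn5, a retinoid-binding lipocalin, was at 770 and 2294 RPKM. Gpx5 thus differed in the opposite direction from these markers.

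Of 29 genes with at least 1000 RPKM in WT, 11 were called higher and 8 lower in KO. Over all genes tested, 2.77% were called higher and 22.1% lower. The 8 of 29 called lower are near that background and no result about abundant genes, while the 11 of 29 called higher are above it. The count called higher over all genes tested depended on the scaling, and was 8 when centred on the caput principal cell markers. The markers Adam7 and Defb20 are among the 11, so that centring cannot decide about the abundant genes. The abundant genes called lower were Gpx5, the polyubiquitin gene Ubb and 6 others with differences at or below -5.70: the protamine genes Prm1 and Prm2, the transition protein genes Tnp1 and Tnp2, and Gm3448 and Gm3417. The last of these have equal values in the table, so their reads may be shared. Among the genes nearest to Gpx5 by Euclidean distance over both libraries in log2(RPKM + 1) were Ubb, the nearest, at 2.06, Rmrp at 2.67, Malat1 at 2.81 and Eef1a1 at 2.90. Ubb had 2031 RPKM in WT and 920 in KO, and Eef1a1 had 2622 and 4719 RPKM. For comparison, the gene nearest to Gpx8 was at a distance of 0.05, so no gene of the table had a pattern that close to that of Gpx5.

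Gpx5 and Gpx6 are neighbours on chromosome 13, on opposite strands, with no other protein-coding gene between them in the RefSeq table. Their differences had opposite signs, so the 250 bases before each start site are shown here, 5′ to 3′ on the strand of the gene, from RefSeq on the GRCm38.p6 build (Gpx5 at chr13:21292687-21292936, minus strand, and Gpx6 at chr13:21311953-21312202, plus strand). Capitals mark matches to the motifs searched.
Gpx5: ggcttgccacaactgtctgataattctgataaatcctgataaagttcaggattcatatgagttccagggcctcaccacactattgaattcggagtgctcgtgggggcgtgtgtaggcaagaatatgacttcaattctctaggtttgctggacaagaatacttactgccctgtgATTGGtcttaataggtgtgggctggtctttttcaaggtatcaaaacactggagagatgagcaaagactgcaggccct
Gpx6: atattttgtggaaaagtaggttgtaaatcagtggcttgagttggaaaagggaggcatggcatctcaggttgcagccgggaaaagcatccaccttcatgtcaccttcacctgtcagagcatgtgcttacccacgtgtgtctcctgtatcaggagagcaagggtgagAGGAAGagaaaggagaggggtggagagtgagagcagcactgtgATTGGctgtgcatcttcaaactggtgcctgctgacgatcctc
Motifs were chosen with the results of these data known and searched on both strands, and none contains another. AGAACA is the core hexamer of androgen receptor sites. AGGAAG is a binding sequence of ETS family factors. CCAAT is the CCAAT box. The TATA box was searched as TATAAA. Gpx5 held 1 match, to the CCAAT box on the reverse strand, 77 bases before the start. Gpx6 held 1 match to the ETS site, 85 bases before the start, and 1 to the CCAAT box on the reverse strand, 42 bases before it. These matches are common: of 32851 promoter windows of this length in the table, 33.8% held the CCAAT box, 29.5% the ETS site, 16.1% the androgen receptor hexamer and 12.4% the TATA box. A match is a description of the letters in the window and not a binding site.

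Gpx6 (NM_145451), a close relative of Gpx5 known from olfactory epithelium, was at 17.7 RPKM in WT and 29.2 RPKM in KO. The KO value was 1.65-fold the WT value (1.43 to 1.90), a difference of 0.69 on the log2(RPKM + 1) scale, and was not called. On the other side of Gpx5 lies Trim27, a ubiquitin ligase gene, which was called lower at 29.6 RPKM in WT and 10.3 RPKM in KO (-1.44). Of the 11 nearest genes that the table lists as protein-coding, Gpx6 left aside, 6 had at least 1 RPKM in a library. Of these 6, 2 were called lower (Trim27 and Zscan12, at -1.19), 0 were called higher and 4 were not called, and with 22.1% of all genes called lower this count is no result about the neighbours. The remaining 5 comprised 4 olfactory receptor genes or pseudogenes at 0 to 0.0738 RPKM and Aoah at 0.478 and 0.616 RPKM.

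The levels of the 8 members spanned a wide range in both libraries. By RPKM, which is per length, the order in WT was Gpx5, Gpx4, Gpx3, Gpx1, Gpx8, Gpx6, Gpx7 and Gpx2. In KO it was Gpx5, Gpx4, Gpx8, Gpx3, Gpx1, Gpx6, Gpx7 and Gpx2, so that Gpx8 passed Gpx3 and Gpx1 while the others kept their order. Gpx5 was 31.95 times the next member, Gpx4, in WT and 9.69 times Gpx4 in KO. In WT the neighbours Gpx1 (40.8 RPKM) and Gpx8 (40.8 RPKM) were nearly level, with 607 and 589 reads. In KO, Gpx4 (94.8 RPKM) and Gpx8 (88.0 RPKM) came close, with 1252 and 1236 reads, while Gpx3 (66.7 RPKM) and Gpx1 (61.0 RPKM) lay below. With 1 library each, no order between neighbours has a replicate check.

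**Figure D2:**
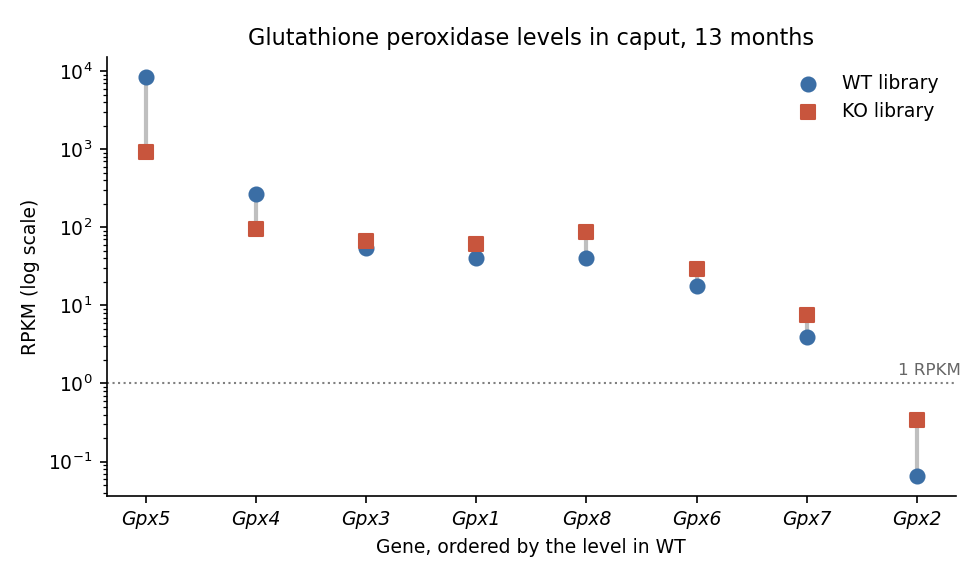
Points give the RPKM of each member on a log axis, with circles for the WT library and squares for the KO library and genes ordered by their WT level. Gpx5 (8474 and 918 RPKM) and Gpx4 (265 and 94.8 RPKM) are lower in KO, and the KO squares of the other 6 members lie above the WT circles.

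Of the 7 members with at least 1 RPKM in a library, 1 was called higher in KO (Gpx8), 2 were called lower (Gpx5 and Gpx4) and 4 were not called. Over all 15000 genes at this level, 2.77% were called higher and 22.1% lower. The 2 members called lower include the targeted gene, so 1 further member was called lower at a background of that size. The median difference was 0.57 for the 7 members and 0.05 for all genes on the log2(RPKM + 1) scale.

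Among Gpx1, Gpx3 and Gpx4, the selenocysteine members with at least 1 RPKM, Gpx4 alone was called, as deposited and under each of the 7 alternatives tried on these differences. Its product is abundant in spermatids and spermatozoa, and somatic tissues also make it. Transcript NM_008162 was at 265 RPKM in WT and 94.8 RPKM in KO, and transcript NM_001037741 at 249 and 89.3 RPKM. The WT level was 2.80-fold the KO level for the former (2.62 to 2.99), with differences of -1.48 and -1.47 on the log2(RPKM + 1) scale. The transcripts have 3608 and 3575 recovered reads in WT, so they share most of their reads and count as 1 measurement. By level, Gpx4 went from place 152 to place 532 of all genes.

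The pattern of Gpx4 was set beside the genes nearest to it. Csnk2b, a casein kinase subunit, lay at a distance of 0.36 (314 RPKM in WT and 114 RPKM in KO), Hsp90aa1, a chaperone, at 0.45 (358 and 86.7 RPKM) and Tcp1, a chaperonin subunit, at 0.55 (209 and 69.9 RPKM). Of the spermatid markers 18 of 18 were called lower in KO, with a median difference of -5.25, against -1.48 for Gpx4. Over all genes tested, 22.1% were called lower, and the median difference was 0.05. Tnp1, a nuclear protein of elongating spermatids, was at 2329 RPKM in WT and 24.1 RPKM in KO. The part of the spermatid transcripts of the WT library in the Gpx4 value was not tested.

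Gpx8, a membrane protein of the endoplasmic reticulum, was at 40.8 RPKM in WT and 88.0 RPKM in KO (NM_027127). The KO level was 2.16-fold the WT level (1.96 to 2.39), a difference of 1.09 on the log2(RPKM + 1) scale, just past the rule of size. The call depended on the scaling: centred on the median of the caput principal cell markers the difference was -0.01, and with a total taken without Gpx5 and without the genes at least 8-fold lower in KO (the reduced total) it was 0.90. Among the 19 markers, 10 had a larger difference than Gpx8. The genes nearest to Gpx8 were Beta-s (40.7 RPKM in WT and 91.5 RPKM in KO), a haemoglobin beta gene, at a distance of 0.05, 0910001L09Rik (38.9 and 86.0 RPKM) at 0.07 and Tpst2 (40.8 and 83.5 RPKM), a Golgi enzyme that sulphates tyrosines, at 0.08. Of 5 tested red cell markers, 3 were called higher (median 1.01), all of them globin genes, beside 2.77% of all genes tested (median 0.05). Hbb-b1 was at 35.9 RPKM in WT and 89.7 RPKM in KO. Alas2, the haem synthesis enzyme of red cell precursors, had a KO value below its WT value (4.19 RPKM in WT and 3.34 RPKM in KO, -0.26). The count of red cell markers called higher was 2 with the reduced total and 0 when centred on the caput principal cell markers. Over all genes these counts were 172 and 8.

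Gpx7, a soluble relative of Gpx8 in the endoplasmic reticulum, was low, at 3.90 RPKM in WT and 7.45 RPKM in KO, or 68 and 126 reads. Its KO level was 1.91-fold the WT level (1.41 to 2.60), with a difference of 0.79 on the log2(RPKM + 1) scale that was not called. Known partners of both enzymes are protein disulphide isomerases: Pdia4 was at 177 RPKM in WT and 333 RPKM in KO (0.91), and Pdia6 at 115 and 217 RPKM (0.92), neither of which was called.

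Gpx1 (NM_008160), the cytosolic and mitochondrial enzyme found in most cells, was at 40.8 RPKM in WT and 61.0 RPKM in KO. The ratio was 1.50 (1.35 to 1.66) and the difference 0.57 on the log2(RPKM + 1) scale. Gpx3, the secreted member known from plasma, was at 54.9 and 66.7 RPKM by transcript NM_008161 and at 52.3 and 63.5 RPKM by NM_001083929. These transcripts share nearly all reads (1115 and 1116 in WT), and the ratio was 1.22 (1.12 to 1.32) with a difference of 0.28. Gpx1 and Gpx3 were not called. Gpx1, Gpx3, Gpx6 and Gpx7 had KO values above WT values under 6 of 7 alternatives and below them, from -0.82 to -0.31, when centred on the caput principal cell markers.

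Gpx2, the enzyme of gut epithelium, was near the floor of detection in caput, at 0.0653 RPKM in WT and 0.336 RPKM in KO. These levels rest on 1 and 5 reads, and the ratio of 5.15 has a counting interval of 0.576 to 244, so no difference was detectable at this depth. The pseudogene Gpx2-ps1 (NR_033563) had 12 reads in WT and 9 in KO, more than Gpx2 itself, and reads of such similar copies may be split between them.

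**Figure D3:**
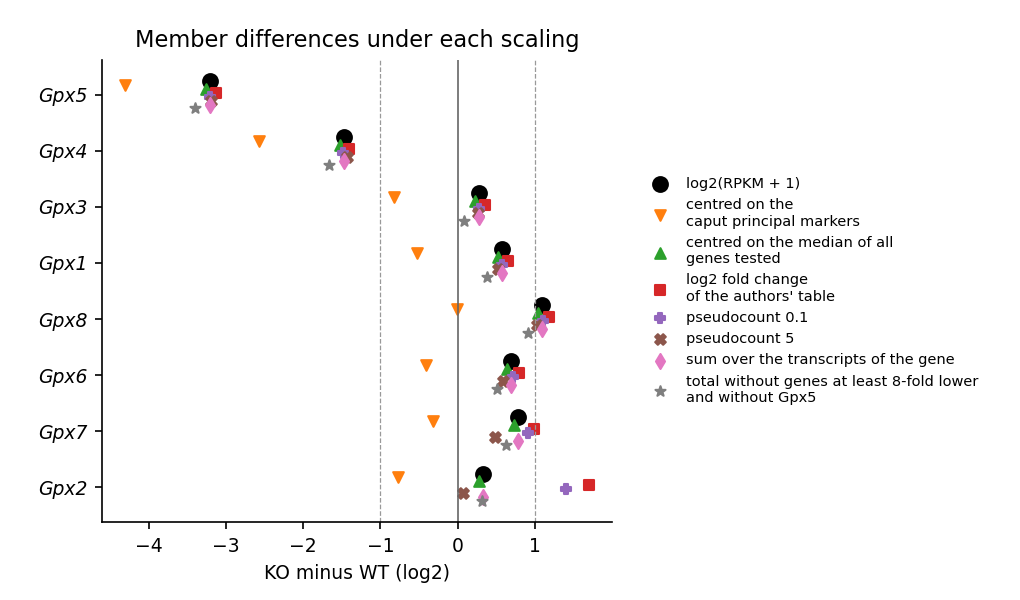
Each row is a member and each symbol its KO minus WT difference (log2), with the black circle for log2(RPKM + 1) as deposited and other symbols for the alternatives. Gpx5 stays between -4.31 and -3.14 and Gpx4 between -2.58 and -1.41, while Gpx1, Gpx2, Gpx3, Gpx6, Gpx7 and Gpx8 pass below 0 when centred on the caput principal cell markers.

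Summed over the family, WT caput held 8898 RPKM and KO caput 1265 RPKM, which is 7.03-fold lower in KO. Without Gpx5 the 7 remaining members summed to 423 RPKM in WT and 348 RPKM in KO, a WT level 1.22 times the KO level. Without Gpx4 as well, 6 members summed to 158 RPKM in WT and 253 RPKM in KO, a KO level 1.60 times the WT level. Gpx4 was left out because its KO value was lower, so the direction of this last sum was fixed by that choice. The difference in Gpx5 alone, from 8474 to 918 RPKM, was many times the summed level of all other members.

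The make-up of the family differed accordingly. Gpx5 held 95.2% of the family RPKM in WT and 72.5% in KO. Gpx4 held 2.98% and 7.49%, Gpx8 0.458% and 6.96%, Gpx3 0.617% and 5.27%, and Gpx1 0.459% and 4.82%. Gpx6 held 0.199% and 2.31%, and Gpx7 0.0439% and 0.589%. The selenocysteine members, Gpx1 to Gpx4, summed to 361 RPKM in WT and 223 RPKM in KO, and the cysteine members, Gpx5 to Gpx8, to 8537 and 1043 RPKM.

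The genes that supply the peroxidases with glutathione were read from lists chosen with earlier results of these data known. Of 7 glutathione synthesis genes, 2 were called higher and 0 lower, beside 2.77% of all genes called higher, with a median difference of 0.65 on the log2(RPKM + 1) scale against 0.05 for all genes. Both calls lay close to the rule of size: 1 was left when centred on the median of all genes, and 0 at a pseudocount of 5 RPKM, with the reduced total or when centred on the caput principal cell markers. Those called higher were Slc7a11, which imports cystine (9.92 RPKM in WT and 22.3 RPKM in KO, 1.09), and Cth, which makes cysteine (10.9 and 22.9 RPKM, 1.00). Gclm, the modifier subunit of the rate-limiting ligase, was not called at 16.0 and 26.8 RPKM (0.71). All 7 genes of this list had KO values above WT values, as the 19 caput principal cell markers did. As with the members, the part of the gap in testis and caput markers between the libraries in this pattern was not tested.

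Of 9 glutathione recycling genes, 0 were called higher and 2 lower (median 0.64), with 1 lower at a pseudocount of 5 RPKM. Me1, malic enzyme, was called lower at 26.4 RPKM in WT and 1.92 RPKM in KO (-3.23), as was G6pd2, an autosomal retrocopy of glucose-6-phosphate dehydrogenase known from male germ cells, at 11.0 and 3.95 RPKM (-1.28). Idh2, the mitochondrial NADPH-forming isocitrate dehydrogenase, was at 23.7 and 44.4 RPKM (0.88). Of 11 tested glutathione breakdown genes, 1 was called higher, the aminopeptidase gene Lap3 (76.1 and 159 RPKM, 1.05), and 2 lower, the oxoprolinase gene Oplah (16.8 and 1.25 RPKM, -2.99) and the dipeptidase gene Dpep3, known from testis (52.9 and 0.214 RPKM, -5.47). The median of this list was 0.34. The call of Lap3 was lost with the reduced total and when centred on the caput principal cell markers. Set against 22.1% of all genes called lower, 2 of 9 and 2 of 11 are shares near the background and no result about these lists.

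The genes that serve the selenocysteine members were compared in the same way. Of 12 selenoprotein synthesis genes, 0 were called higher and 1 lower (median 0.47): Sephs2, which makes the selenium donor, at 50.7 RPKM in WT and 11.8 RPKM in KO (-2.02). Eefsec, the selenocysteine elongation factor, lay just inside the rule at 11.8 and 5.44 RPKM (-0.99), and Trnau1ap, which binds the selenocysteine tRNA, was at 17.6 and 35.1 RPKM (0.96). None of 5 selenium supply genes was called by the rule of size, and Sepp1, the selenium carrier selenoprotein P, was at 71.6 and 106 RPKM (0.56). Of 16 tested selenoproteins outside the family, 0 were called higher and 3 lower (median 0.28), among them Txnrd3, a thioredoxin reductase known from testis (31.3 and 3.19 RPKM, -2.95). The others were BC089491, selenoprotein V, also known from testis (31.95 and 0.118 RPKM, -4.88), and Sepw1, selenoprotein W (66.1 and 16.4 RPKM, -1.95). Among 13 tested genes that make peroxides or partner the endoplasmic reticulum members, 1 was called higher, the cyclooxygenase gene Ptgs1 (9.93 and 21.0 RPKM, 1.01), and 1 lower, Aifm2, a reductase that limits lipid peroxidation (4.51 and 1.51 RPKM, -1.13, below the level set for named genes and named after its value was seen). The count of selenoprotein synthesis genes called lower was 2 when centred on the median of all genes, by the authors' deposited table, at a pseudocount of 0.1 RPKM and with the reduced total. By the authors' deposited table, 2 selenoprotein synthesis genes were also called higher. Of the other selenoproteins, 1 was called higher by that table and 1 at a pseudocount of 0.1 RPKM. Over all 15000 genes tested, 1004 were called higher by that table and 698 at that pseudocount. The call of Ptgs1 was lost under either centring, at a pseudocount of 5 RPKM and with the reduced total. At a pseudocount of 5 RPKM the call of Aifm2 was lost too. Centred on the caput principal cell markers, 5 selenoprotein synthesis genes, 2 selenium supply genes, 5 other selenoproteins and 4 genes of this last list were called lower. With that centring 7894 of all 15000 genes tested were called lower, and the share of each list was below that background. On the values as deposited, 22.1% of all genes tested were called lower and 2.77% higher. The shares of these lists called lower were below that background and are no result about the lists. The single call of Ptgs1 is no result about its list either.

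**Figure D4:**
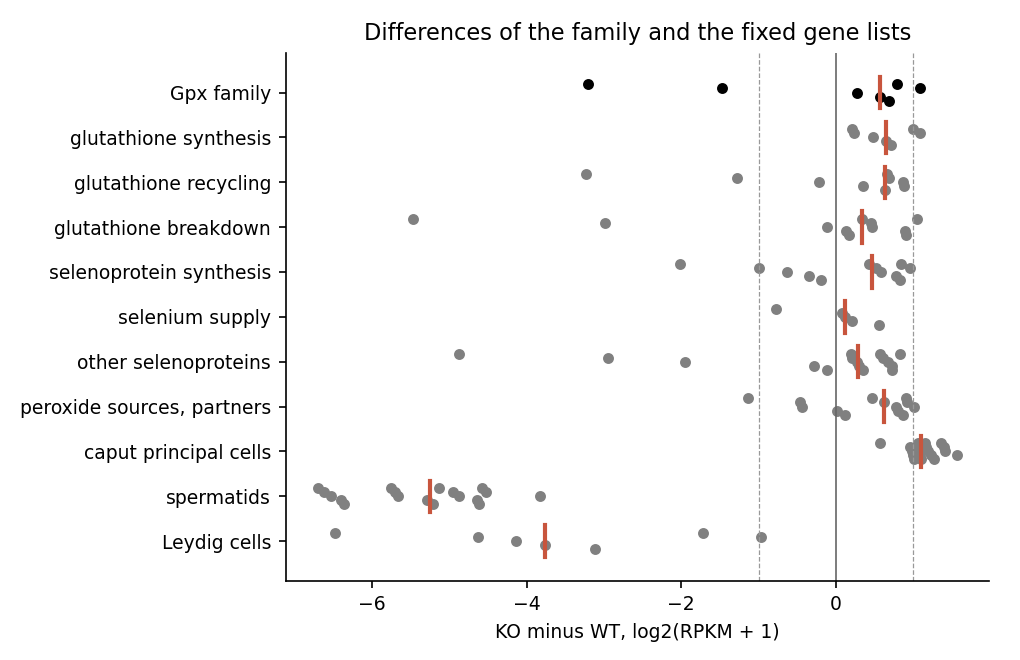
Each point is a tested gene, placed by its KO minus WT difference in log2(RPKM + 1), with a bar at the median of each list. The family has a median of 0.57 with Gpx5 and Gpx4 far to the left, the glutathione synthesis genes lie between 0.21 and 1.09, and the spermatid and Leydig cell markers lie to the left of the family's median.

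Markers of other cell types were read on the same scale. Of 5 basal cell markers, 5 muscle markers and 8 stroma and endothelium markers, 0 were called, with medians of 0.86, 0.56 and 0.27 on the log2(RPKM + 1) scale. Clear cell markers had 1 of 5 called lower (median 0.69), leukocyte markers 0 of 6 (median 0.16) and adipocyte markers 1 of 2 tested called lower (median -1.50). Over all genes tested, 22.1% were called lower.

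Small RNA libraries were made separately from the transcriptome libraries, and whether they used the same RNA is not given in the sources used here. Reads that the authors matched to member mRNAs were counted as RPM (the reads-per-million scale, with the classified reads of the library as the total). Gpx5 fragments numbered 808 in WT caput at 13 months, or 58.4 RPM (54.5 to 62.6), and 25 in KO caput, or 1.36 RPM (0.881 to 2.01). The WT value was 42.9-fold the KO value (28.9 to 66.7). All reads of the mRNA class numbered 476638 in WT and 154987 in KO, and per read of that class the Gpx5 ratio was 10.5, beside 9.23 in the transcriptome. Cauda WT had 3 reads of Gpx5, and the other 7 libraries had 0, where the value of 3 reads, the floor used for a count of 0, lay between 0.103 RPM in WT corpus and 0.778 RPM in the 2-month WT caput. Among the 13-month libraries, fragments of Gpx5 were thus found mainly in the caput library of WT mice. The 2-month caput libraries held only 3671 (WT) and 8202 (KO) reads of the mRNA class, so their counts of 0 are no result about age.

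Most Gpx5 reads in WT caput did not begin with T, the usual first base of piRNAs. The shares over all mRNA reads are not set beside these counts, which are a description. In WT caput, lengths of 24 to 32 nt made up 433 of the 808 reads, a first base of T was seen in 126, and 0 lay on the minus strand. The Gpx5 reads of WT caput comprised 535 distinct sequences, with at most 22 reads each. Joined where at least 12 bases overlapped, the 753 WT and 24 KO reads without a mismatch formed 24 stretches of 1487 bases in all. KO reads covered 298 of these bases in 6 stretches, and the 18 stretches without a KO read held 234 WT reads, or 31.1% of the WT reads. The stretches were sorted by their KO reads, so this share is a description with no test.

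One stretch, picked after the reads were seen, is shown as an example of where WT and KO reads overlap. It was assembled from the deposited reads, runs 5′ to 3′ over 71 bases and had 13 WT reads and 1 KO read. Capitals mark bases 16 to 47, the KO fragment of 32 nt, a sequence taken from those not listed in the WT library.
Gpx5 fragment stretch: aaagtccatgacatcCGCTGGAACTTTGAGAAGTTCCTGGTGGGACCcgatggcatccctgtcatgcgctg
The longest stretch, of 171 bases, had 199 WT and 11 KO reads, and the next, of 167 bases, had 217 and 5. Stretches of 116 and 114 bases had 57 and 86 WT reads and 0 KO reads. Which exons the KO reads cover was not analysed here, since no genome or transcript sequence of Gpx5 was used.

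**Figure D5:**
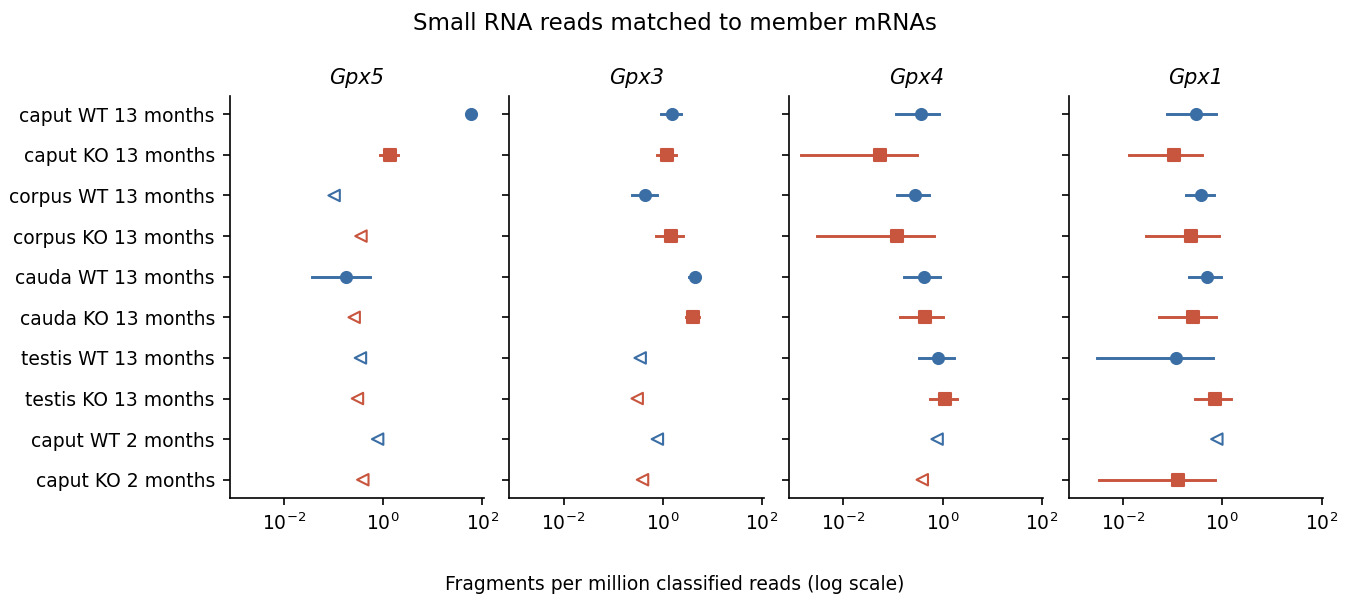
Reads matched to 4 member mRNAs in the 10 small RNA libraries, in RPM on a log axis with exact Poisson intervals at 95%. Blue stands for WT and red for KO, and open triangles mark libraries with 0 reads at the value of 3 reads. Gpx5 reaches 58.4 RPM in WT caput at 13 months, and Gpx3 is highest in both cauda libraries at 4.38 and 4.02 RPM.

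Gpx3 had another distribution along the tract. Its fragments were highest in cauda, with 72 reads in WT (4.38 RPM, 3.43 to 5.52) and 46 in KO (4.02 RPM, 2.94 to 5.36). Caput at 13 months had 21 reads in WT (1.52 RPM) and 22 in KO (1.20 RPM), and testis and 2-month caput had 0. The 0 in 2-month caput is limited by the few reads of the mRNA class there, as for Gpx5. In cauda and caput the WT and KO intervals overlapped. The base mattered in caput: on the reads-per-million scale with reads of the mRNA class as the total, Gpx3 had 44.1 in WT and 142 in KO caput, and 498 in WT and 290.4 in KO cauda. Corpus had 13 reads in WT (0.448 RPM) and 12 in KO (1.44 RPM), a KO value 3.21-fold the WT value (1.34 to 7.63), with no replicate check. The most abundant Gpx3 sequence of 24 to 32 nt without a mismatch in the WT cauda library, with 5 reads there and 0 in the other 9 libraries, is shown as an example of these fragments, whose reads were spread over 42 sequences.
Gpx3 fragment: aggagccaggcgagaactcggaga

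The other members gave few fragments. Gpx4 had 7 reads in WT testis (0.817 RPM) and 11 in KO testis (1.12 RPM), with 5 and 1 in caput at 13 months, 8 and 1 in corpus, and 7 and 5 in cauda. Gpx1 had 1 to 11 reads in each 13-month library. Over all 10 libraries Gpx8 had 12 reads, Gpx7 9, Gpx6 7 and Gpx2 1, with at most 4 reads in a library, so no difference between genotypes was detectable for them at this depth.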

How the data were processed

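Members and lists were chosen with earlier results of these data known, as were the motifs. Members were taken by gene name, with all transcripts named. From each list up to 3 genes with the largest absolute difference at 5 RPKM or more were named, then the 5 genes nearest to Gpx5 and the 3 nearest to each other member called. Of the 5, 1 is not reported here.

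RPKM per RefSeq transcript was deposited by the authors, who ran GFOLD V1.1.3 per the file headers. A log2 change and a GFOLD value per transcript were deposited as well, and the deposited E-FDR, an empirical false discovery rate (q-value), is 1 for each of 28344 transcripts. A constant value separates no transcript from another, and it was not read as a test. The small RNA files deposited by the authors hold a read count per distinct sequence with the entry it was matched to, allowing mismatches. Per the submitters' processing notes, TopHat2, Bowtie 0.12.7 and mm9 were used, with no role stated. Whether counting used strand is not given in the sources used here.

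Each gene was reduced to the transcript with the highest mean RPKM, and genes that reached 1 RPKM in a library were compared. Reads were recovered from RPKM, the totals in the header and the deposited log2 fold change. Among 2643 transcripts with at most 20 reads in each library, 99.55% of the values lay within 0.1 of a whole number, and with 1 library per group no count test was run. Gene names had become dates in 42 transcripts, of which 41 were restored, and 26880 transcripts matched the RefSeq table. All 8 members had a RefSeq promoter window. Counts in the 2-month files were read back from dates for 5531 and 5419 sequences. Intervals of ratios are exact conditional binomial and those of fragments exact Poisson. Gpx5 fragments could not be placed on the protein, as planned, and were joined by overlap, a step chosen after seeing the data. Python 3.11.15 with numpy 2.4.6, pandas 2.3.3, scipy 1.17.1 and matplotlib 3.10.9 was used, and the scripts were tested on simulated data. Alternatives covered pseudocounts, filters, centring, totals, transcripts and the base of fragment counts.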

Additional observations from a re-analysis of the deposited data

How the results depend on the processing

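Gpx5 and Gpx4 were at or below -1 under all 7 alternatives tried on each difference. The difference of Gpx5, -3.21 on log2(RPKM + 1), was -4.31 when centred on the caput principal cell markers, -3.26 when centred on the median of all genes, -3.14 by the authors' deposited table and -3.40 with the reduced total. That total left out 1141 genes at least 8-fold lower in KO, Gpx5 among them, which held 12.9% of WT and 0.464% of KO reads. Centring on the caput principal cell markers turned Gpx8 to -0.0073, put Gpx1, Gpx2, Gpx3, Gpx6 and Gpx7 below 0 (from -0.82 to -0.31), left 0 members called higher, and split all genes into 8 higher and 7894 lower in place of 415 and 3321. The reduced total left 0 members and 172 genes called higher. The count of genes called higher was 1004 by the authors' deposited table, 698 at a pseudocount of 0.1 RPKM and 190 at 5 RPKM, where 2073 genes were called lower. Summing transcripts, which counts shared reads of Gpx3 and Gpx4 more than once, put the share of Gpx5 at 92.1% in WT and 64.7% in KO. No paired analysis was possible because each group is 1 library and no test was run. Depth limits Gpx2, and the fragments of members other than Gpx5 and Gpx3. In the 2-month caput libraries, with 3671 (WT) and 8202 (KO) reads of the mRNA class, depth limits the fragments of all members.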
